A study of Mus musculus with 10 samples.

Results

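Translocation junctions were compared between 2 libraries, both from cells in which the restriction enzyme AsiSI had been switched on, and 1 of them from cells also given DRB. DRB inhibits the kinases that release paused RNA polymerase II into elongation. The libraries were taken by their titles from the 10 of the series, and each condition had 1 library. All 9661 junctions of the AsiSI library and all 13399 of the DRB with AsiSI library on chromosomes 1 to 19 and X entered the comparison, after 11 and 26 others were set aside. The difference has no replicate check. Fisher's exact test and the 95% intervals below compare these libraries, not the conditions, and cover counting error only.

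Both libraries came from Abelson-transformed pre-B cells of C57BL/6 background with the genotype LIG4-/-, so that both lack the ligase of classical end joining. The labels do not say whether a single line or clone was used, and the cell type could not be checked against marker genes because only DNA was measured. Both were held in G1 with imatinib (given in the labels as 3 mM) for 48 h. Doxycycline at 1 µg/ml was added after 24 h and induced the zinc-finger nuclease that cuts the bait site, and AsiSI was induced by the same doxycycline followed 20 h later by tamoxifen at 1 µM. DRB, whose dose the labels give as 150 mM, was added 2 h before AsiSI was induced and kept on during the induction. The doses of imatinib and DRB are printed as the labels give them, are high for these drugs, and could not be checked against another source, so their unit is uncertain. The labels name the AsiSI library as the control of the DRB with AsiSI library, and read names put both in the same sequencing run. The most frequent bases near the start of each library's reads were taken as its primer barcode. They were read in 98.9% and 99.4% of the junctions of the AsiSI and the DRB with AsiSI library. The other library's barcode was read in 0 of either. Because the barcodes were inferred from the same reads, these shares are not an independent check that the libraries were kept apart.

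High-throughput genome-wide translocation sequencing reads outward from 1 fixed break, the bait, and records which other broken end, the prey, it was joined to. AsiSI cuts an 8-base palindrome that is often found in CpG-rich promoters, and methylation of its CpG pairs blocks cutting. In pre-B cells a second source of breaks is the RAG recombinase, which cuts at the V and J segments of the kappa light chain locus. When classical end joining is lost, ends are joined by alternative routes that often use short stretches of shared bases. The bait break falls in the T-cell receptor beta locus, in the stretch of chromosome 6 from the end of Trbc2 at 41548181 to the start of Trbv31 at 41557693 (mm10). Prey here means a junction more than 1 Mb from it, and rates are prey junctions per 1000 junctions within 1 Mb of the bait.

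No map of AsiSI sites across the genome was used here. AsiSI motifs were therefore found by their letters, GCGATCGC (a palindrome, so the same on both strands), in RefSeq promoter windows of GRCm38.p6, which run from 250 bases before to 50 after each gene start, and in the prey part of the junction reads. Of 32619 windows, 73 held the motif, which is 0.224%, and they gave 62 separate sites. Reads were searched only where junctions clustered, as described below. The following are the motifs at which both libraries had the most junctions. They are written with the motif in capitals, and N marks a base that no read covered.

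Syde2, chr3:145989047-145989054, assembled from the reads of these libraries, forward strand: gatgaagggtcGCNNTCGCgggacagcacc
Pcgf1, chr6:83078413-83078420, assembled from the reads, forward strand: ggggccagattGCGATCGCgatgaggcttc
Zc3hav1, chr6:38353412-38353419, assembled from the reads, forward strand: aggattctgggGCGATCGCaacattcgagg
Lpcat3, chr6:124662919-124662926, RefSeq promoter, + strand gene: gcagctgggtcGCGATCGCaagccccgccc
Nfs1/Romo1, chr2:156144260-156144267, RefSeq promoter, - strand window: cgttctccgctGCGATCGCtcagctcgacg
Klf7, chr1:64121475-64121482, RefSeq promoter shared with Gm35880, + strand window: ttttttttctcGCGATCGCttctctccccc
Alas1, chr9:106247874-106247881, RefSeq promoter shared with 4930500F10Rik, + strand window: agcctaaggccGCGATCGCtggcggcccta

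The flanks of these 7 sites differ, and the motif is all they have in common by construction. Counted from the start of the window's gene, the motif stood at -185 for Lpcat3 and at -81 for Nfs1/Romo1. The Syde2 motif stood inside the gene (145987405 to 146021720).

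The DRB with AsiSI library had a lower rate of prey outside the antigen receptor loci than the AsiSI library. The AsiSI library had 931 such junctions, or 125.3 per 1000 near the bait, and the DRB with AsiSI library had 1168, or 111.4 per 1000. The ratio was 0.889 (95% interval 0.812 to 0.974; Fisher's exact test, two-sided, p = 0.0123, adjusted p = 0.0246 over 4 rates). At the AsiSI clusters described below the ratio was 0.680 (0.510 to 0.904; Fisher's exact test, adjusted p = 0.0246), and for all other prey on chromosomes other than 6 (trans prey) it was 0.876 (0.784 to 0.980; Fisher's exact test, adjusted p = 0.0289), from 600 junctions, or 80.7 per 1000, to 742, or 70.8 per 1000. The kappa locus gave 1288 junctions, or 173 per 1000, against 1730, or 165 per 1000. Its ratio of 0.952 (0.880 to 1.03) did not pass the test (Fisher's exact test, adjusted p = 0.216).

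The 3 calls were lost when identical positions were counted once. Of the junctions within 1 Mb of the bait, 33.6% in the AsiSI library and 30.8% in the DRB with AsiSI library remained when identical positions were counted once, against 97.7% and 97.9% of prey outside the antigen receptor loci. Counted once on both sides, the ratio was 0.971 for prey outside the antigen receptor loci, 0.747 for the clusters and 0.953 for other trans prey, and none of these 3 passed Fisher's exact test (adjusted p = 0.586, 0.243 and 0.586). Of the 2500 positions near the bait in the AsiSI library, 1572 (62.9%) were also joined in the DRB with AsiSI library, against 40 of 910 (4.40%) for prey outside the antigen receptor loci. Positions near the bait thus recurred in both libraries, whose inferred barcodes differed, and counting them once leaves a smaller part of the deeper library. Within 1 library, repeated molecules and independent joinings at the same base could not be told apart without molecular identifiers.

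**Figure D1:**
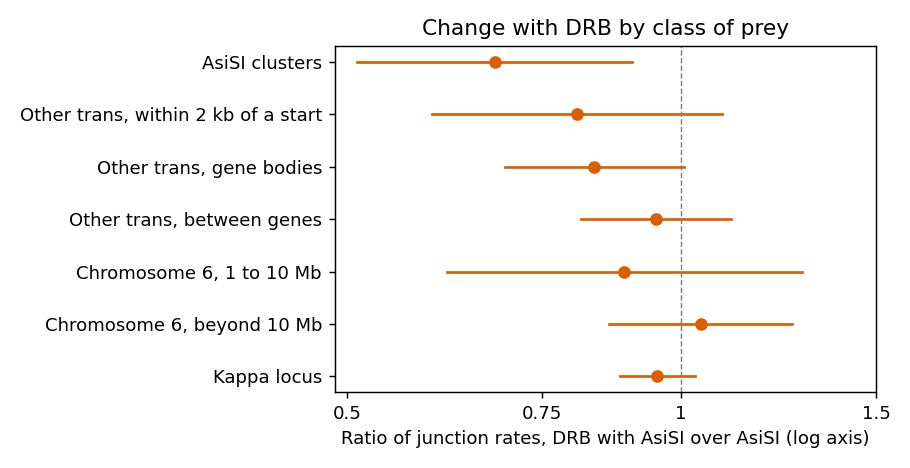
Ratio of junction rates, DRB with AsiSI over AsiSI, for each class of prey (points, with 95% intervals for counting error; log axis; dashed line at 1). The interval of the AsiSI clusters runs from 0.510 to 0.904 and lies below 1, while those of the kappa locus and of chromosome 6 include 1.

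AsiSI clusters were groups of prey with gaps of at most 2 kb, at least 4 junctions over both libraries and 0 in the other 8 libraries of the series, which received no AsiSI. Both libraries chose them together, by the sum of unscaled counts. The DRB with AsiSI library had more prey outside the antigen receptor loci (1168 against 931), so the choice can favour clusters joined in it. There were 19, on 13 chromosomes, with 4 to 68 junctions each (median 6). A motif was found at 4 of the 19 (Syde2, Nfs1/Romo1, Alas1 and Snx11); at the other 15, Rcor1 and Mex3a among them, none was found in the reads or promoter windows, so the name rests on their presence in these libraries alone. In 14 of the 19 junctions lay on both strands and in 5 on 1 strand. The median junction lay inside a protein-coding gene in 15 and within 1 kb of a listed RefSeq start in 13. The list of starts was incomplete. The Ppp1r15b cluster lay inside its gene (133131166 to 133139800), yet its nearest listed start was 85828 bp away. The AsiSI library had junctions in 18 of the 19 and the DRB with AsiSI library in all 19.

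Summed over these clusters, the AsiSI library had 97 junctions (13.1 per 1000 near the bait) and the DRB with AsiSI library 93 (8.87 per 1000). As a share of prey outside the antigen receptor loci this was 10.4% (95% exact interval 8.53 to 12.6) and 7.96% (6.47 to 9.67). On the share of prey, a scale chosen after seeing the data, the ratio was 0.764 (0.568 to 1.03) and did not pass Fisher's exact test (p = 0.0556). The fall at the clusters against that at the kappa locus gave a ratio of ratios of 0.714 (0.532 to 0.957; Fisher's exact test, adjusted p = 0.0425 over 3 such contrasts; the same unadjusted p of 0.0283 gives an adjusted p of 0.113 among all rates scaled to kappa prey, so the call depends on the family adjusted over), and against other chromosome 6 prey 0.674 (0.484 to 0.937; adjusted p = 0.0425). Against other trans prey it was 0.775 (0.572 to 1.05; Fisher's exact test, adjusted p = 0.103), so a fall particular to the clusters among trans prey was not shown.

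No single cluster passed the test. Of 19 tested, 0 passed an adjusted p of 0.05 in Fisher's exact test (0% called), and an exact binomial test also called 0. At an unadjusted p under 0.05 there was 1, Fam160b1, which met the cluster rule only through the DRB with AsiSI library. The rate was lower with DRB in 14 and higher in 5, with a median ratio of 0.709, in which Fam160b1, with 0 junctions in the AsiSI library, ranks as the highest. With a median of 6 junctions per cluster over both libraries, differences at single clusters were within counting error at this depth, which does not show that they were absent.

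Syde2 held the largest cluster. It had 36 junctions in the AsiSI library (4.84 per 1000) and 32 in the DRB with AsiSI library (3.05 per 1000), between positions 145983907 and 145990256 of chromosome 3. Its ratio was 0.630 (0.391 to 1.02; Fisher's exact test, unadjusted p = 0.0641). Without it the sum over the other 18 clusters was 61 junctions in each library, with a ratio of 0.709 (0.496 to 1.01) that did not pass Fisher's exact test (p = 0.0649). The size of the fall thus changed little without Syde2, but the call was lost.

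The next clusters lay at the starts of genes of diverse function. Rcor1, a subunit of the CoREST repressor complex, had 8 junctions in each library (1.08 and 0.763 per 1000). Mex3a, an RNA-binding protein, had 9 in the AsiSI library and 6 in the DRB with AsiSI library (1.21 and 0.572 per 1000). The Nfs1/Romo1 promoter, which serves the cysteine desulfurase of iron-sulfur cluster assembly and a mitochondrial membrane protein on opposite strands, had 6 and 5. The cluster at Alas1, the first enzyme of haem synthesis, had 6 and 3. In all of these the rate was lower with DRB, and each interval included 1.

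Smaller clusters went both ways. Dyrk3 (a protein kinase) and Klhdc4 had 4 junctions in the AsiSI library and 3 in the DRB with AsiSI library each. Snx11, a sorting nexin, and a cluster whose nearest gene was the odorant receptor Olfr132, 19385 bp away, had 3 and 3. Ppp1r15b, a phosphatase subunit of the stress response, and Dnmt3b, a DNA methyltransferase, had 3 and 1 each, as did Mxra8. Ube2g1, a ubiquitin-conjugating enzyme, had 2 and 3, and S100pbp and 2410002F23Rik had 2 and 2 each. Scarb2 (a lysosomal membrane protein) had 1 and 4, and Atp8a2 and Pomt1 had 1 and 3. Fam160b1 had 0 junctions in the AsiSI library, which allows up to 0.404 per 1000. In the DRB with AsiSI library it had 7, or 0.668 per 1000 (Fisher's exact test, unadjusted p = 0.0464, adjusted p = 0.609). It met the rule of at least 4 junctions only through the library in which it was high. Its p-value is thus drawn from the values that chose it and is not support for a rise.

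**Figure D2:**
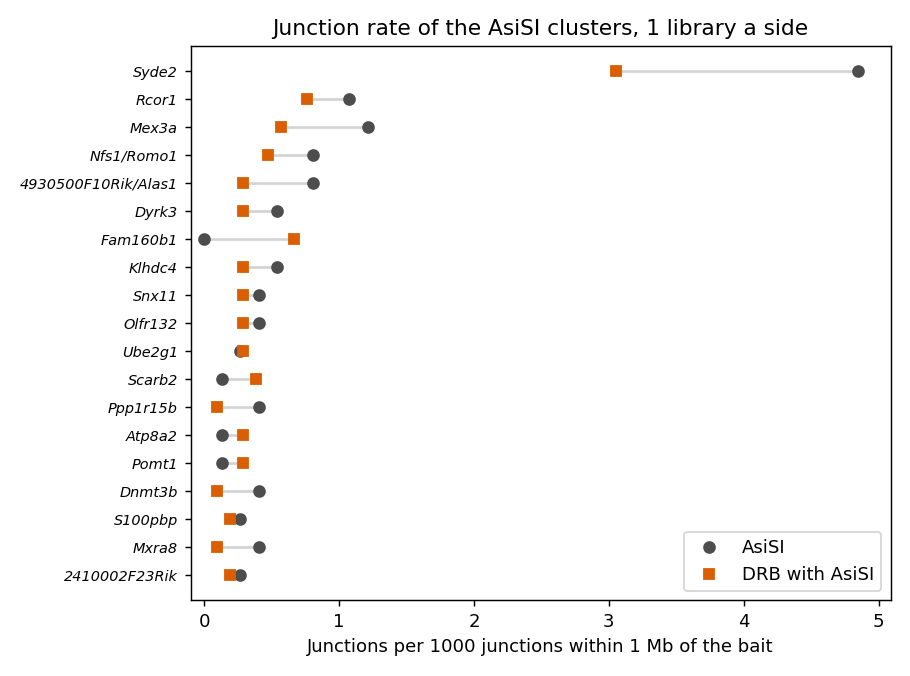
Junctions per 1000 junctions within 1 Mb of the bait in each of the 19 AsiSI clusters, named by the nearest protein-coding gene, in the AsiSI library (grey circles) and the DRB with AsiSI library (orange squares). Syde2 stands at 4.84 and 3.05, and 14 of the 19 clusters are lower with DRB.

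Junctions at the motifs themselves did not need the cluster rule. Of the 62 promoter motifs, 16 were joined in the AsiSI library, 17 in the DRB with AsiSI library and 12 in both, counting junctions within 2 kb. They gave 40 junctions (5.38 per 1000) and 41 (3.91 per 1000), a ratio of 0.726 (0.469 to 1.12) that did not pass Fisher's exact test (p = 0.175). Of the other 8 libraries, 6 had 0 such junctions, etoposide replicate 1 had 9 and IFN with etoposide had 2. Per 1000 junctions near the bait, etoposide replicate 1 stood at 7.51, above both AsiSI libraries, and IFN with etoposide at 0.622. As a share of prey outside the antigen receptor loci, these junctions made up 4.30% and 3.51% in the AsiSI and the DRB with AsiSI library and 0.0873% in etoposide replicate 1. Lpcat3, a lysophospholipid acyltransferase, had 9 junctions in the AsiSI library and 8 in the DRB with AsiSI library. Klf7, a zinc-finger transcription factor, had 3 and 7, and Plk3, a stress kinase and p53 target, had 1 and 4. The values for Klf7 and Plk3 were higher with DRB, with intervals that included 1.

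Sites on chromosome 6 with a motif in the reads also took junctions in libraries without AsiSI and so were not in the cluster count. Pcgf1, a Polycomb subunit, had 12 junctions in the AsiSI library and 16 in the DRB with AsiSI library, with 1 in the other 8 libraries. The motif cluster in Zc3hav1, which encodes the antiviral zinc-finger protein ZAP, had 15 and 7, with 9 in the other 8 libraries. Hk2, a hexokinase, had 6 and 2, with 8 in the other 8 libraries. When all 10 clusters with a motif were taken, whatever the other libraries held, the sums were 97 and 87 junctions and the ratio was 0.636 (0.475 to 0.850; Fisher's exact test, unadjusted p = 0.00255), a set chosen after seeing the data. Clusters without a motif that other libraries also joined numbered 17, with 90 and 103 junctions and a ratio of 0.811 (0.610 to 1.08).

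Most junctions began close to the motif and were read away from it. At Syde2, Pcgf1, Zc3hav1 and Hk2, with 64, 28, 22 and 8 junctions, the motif was itself found in the reads of the cluster. Among matches with equally few unread bases, the nearest to the median junction was taken. Closeness at these sites was thus partly built in, and the sums below pool them with motifs from promoter windows. Around all motifs found in promoters or reads, 93 of 107 junctions in the AsiSI library (86.9%) and 73 of 96 in the DRB with AsiSI library (76.0%) were read away from the motif (Fisher's exact test, p = 0.0677). The median distance of these from the motif centre was 26.5 bp in the AsiSI library and 18.5 bp in the DRB with AsiSI library. Within 50 bp lay 80.6% (71.1 to 88.1) and 76.7% (65.4 to 85.8), a difference within counting error (Fisher's exact test, p = 0.569). At Syde2, junctions within 2 kb of the motif numbered 34 and 30, of which 31 and 21 were read away from it, with medians of 22.5 and 17.5 bp. At Pcgf1 the medians were 30 bp in the AsiSI library over 10 junctions and 12 bp in the DRB with AsiSI library over 12. At Zc3hav1 they were 29 bp over 14 junctions and 17.5 bp over 6. At Lpcat3 the order was the other way, with 15.5 bp over 7 junctions and 19.5 bp over 7.

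**Figure D3:**
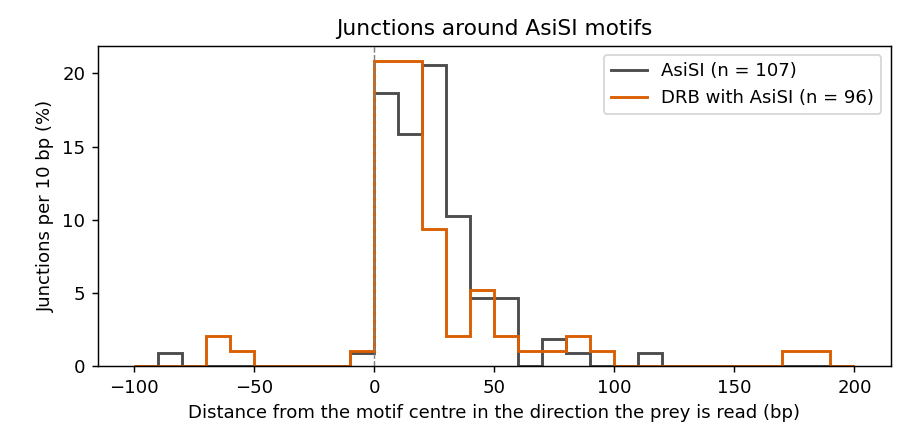
Position of junctions around the AsiSI motifs in steps of 10 bp, as a percentage of all junctions within 2 kb of a motif, with positive distances read away from the motif, for the AsiSI library (grey, 107 junctions) and the DRB with AsiSI library (orange, 96 junctions). Most junctions of both libraries lie between 0 and 50 bp; the axis leaves out junctions beyond its ends.

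Trans prey outside the clusters was lower with DRB in each genomic class, and no class passed its test alone. Within 2 kb of a gene start there were 80 junctions in the AsiSI library and 91 in the DRB with AsiSI library, a ratio of 0.806 (0.596 to 1.09). In gene bodies farther from a start there were 212 and 250, a ratio of 0.836 (0.694 to 1.01; Fisher's exact test, unadjusted p = 0.0622). Between genes there were 288 and 386, a ratio of 0.95 (0.813 to 1.11). Chromosome 18, for which no starts were used, had 20 and 15 junctions. The starts used also lacked some genes on other chromosomes, such as Ppp1r15b and Ets1. Some junctions near a start can thus fall in the other classes. On chromosome 6 outside the antigen receptor loci, prey 1 to 10 Mb from the bait numbered 51 and 64 (ratio 0.889, 0.615 to 1.29) and prey beyond 10 Mb 183 and 269 (ratio 1.04, 0.861 to 1.26). With cluster junctions counted in, 13 of the 20 chromosomes had a lower rate with DRB, and 0 passed Fisher's exact test (0% called, 0 at an unadjusted p under 0.05). The highest ratio was that of chromosome X, with 16 and 32 junctions (1.42, 0.777 to 2.58).

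Counts per gene were small as well. Of 34 protein-coding genes with at least 5 junctions over both libraries (body plus 2 kb), 0 passed an adjusted p of 0.05 in Fisher's exact test (0% called). At an unadjusted p under 0.05 there were 3. Zc3hav1 with 16 and 8 junctions and the taurine transporter gene Slc6a6 with 7 and 2 were lower with DRB, and Fam160b1 was higher. Slc6a6 and Fam160b1 reached 5 junctions only through the library in which they were high, so their p-values are not support for a change. The rate was lower in 19 genes and higher in 15, with a median ratio of 0.883, Fam160b1 again ranking as the highest. An exact binomial test called 0 as well, which at this depth does not show that differences at single genes were absent.

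Genes with the most junctions included some for which no motif was found in the reads, which were searched only within clusters of junctions. Narf and Gtf3c4 held such a cluster. Foxp1 and Cntnap2 did not, so the reads there were not searched. Foxp1, a transcription factor of B-cell development and a fusion partner in leukaemia, had 23 junctions in the AsiSI library and 29 in the DRB with AsiSI library (3.10 and 2.77 per 1000; ratio 0.894, 0.517 to 1.55). Narf had 7 and 13, and Gtf3c4, a subunit of an RNA polymerase III factor, had 9 and 7. The long neuronal gene Cntnap2 on chromosome 6 had 6 and 8. Its promoter window held a motif, but neither library had a junction within 2 kb of it. None of these genes passed the test.

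The gene lists added few junctions. In the list of 25 B-lineage genes 2 had junctions, namely Foxp1 and Ikzf1 (a lymphoid transcription factor, 2 and 4), with a sum of 25 and 33. In 28 leukaemia translocation genes the sum was 29 and 38, of which Foxp1 and Ikzf1 again held most, and Nup214 had 2 and 1. In 28 long neural genes it was 19 and 28 (ratio 1.04, 0.583 to 1.87), with 4 and 9 in Ctnna2. In 24 p53 targets it was 1 and 5, from Plk3, where a promoter motif lies, and Gadd45a with 0 and 1. In 24 immediate-early response genes it was 1 and 1, in Jun and Myc. In 26 genes of other blood lineages it was 0 and 1, in Klf1. The 26 highly expressed housekeeping genes, 27 transcription machinery genes and 29 double-strand break response genes had 0 in both, which allows up to 0.404 per 1000 in the AsiSI library and 0.286 per 1000 in the DRB with AsiSI library. Of the list members, 0 passed Fisher's exact test, against 0% of all genes tested.

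Junctions at the kappa locus, where RAG cuts, were spread over many segments in both libraries. V segments, with 500 bp on each side, took 50.2% (47.47 to 52.999) of kappa junctions in the AsiSI library and 48.6% (46.2 to 50.9) in the DRB with AsiSI library (Fisher's exact test, p = 0.377). J segments took 3 and 2 junctions, and the rest lay away from segments. Igkv6-32 led with 102 junctions (13.7 per 1000) and 124 (11.8 per 1000). Igkv11-114 had 69 and 84, Igkv1-117 had 55 and 88, Igkv8-30 had 49 and 61, Igkv19-93 had 27 and 46, and Igkv8-34 had 27 and 26. Of 26 segments with at least 10 junctions, 0 passed Fisher's exact test (0% called), and 1 had an unadjusted p under 0.05. That segment was Igkv1-110, with 20 and 13 junctions. The rate was lower with DRB in 20 of the 26 and the median ratio was 0.873.

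**Figure D4:**
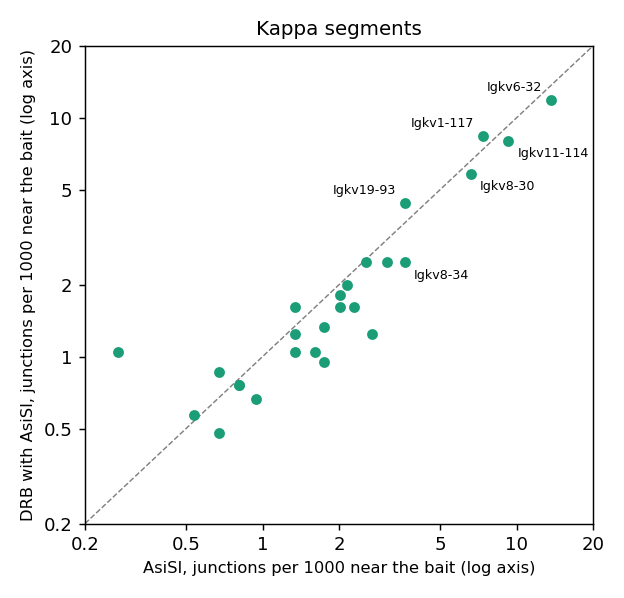
Junctions per 1000 junctions near the bait at each of 26 kappa segments in the AsiSI library (horizontal) and the DRB with AsiSI library (vertical), both on log axes, with the line of equal rates dashed. The 6 segments with the most junctions are named; Igkv6-32 stands at 13.7 and 11.8, and 20 of the 26 lie below the line.

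The form of the junctions was described by 6 shares. At least 1 base shared by bait and prey (microhomology) was found in 78.3% (76.5 to 80.0) of prey in the AsiSI library and 77.6% (76.0 to 79.1) in the DRB with AsiSI library. Among those the median length was 3 bases in each. Inserted bases were found in 14.9% and 14.6%. The bait end was trimmed by more than 10 bp in 72.0% and 70.6%. On chromosomes other than 6, 50.6% (46.8 to 54.3) and 46.5% (43.1 to 50.0) of prey lay in gene bodies and 34.0% and 30.9% within 5 kb of a gene end. Prey that began with the letters an AsiSI end would leave made up 0.493% and 0.549%. In the libraries without AsiSI this share ran from 0% in IFN, DRB and DRB with etoposide to 0.552% in IFN with etoposide. The shortest letters accepted were CGC, so the share does not measure AsiSI ends alone. None of these 6 shares differed beyond counting error (Fisher's exact test, adjusted p between 0.527 and 0.848 over the 6). With chromosome 6 and its kappa prey kept in, the shares in gene bodies and near gene ends differed by -3.09 and -2.40 percentage points (DRB with AsiSI minus AsiSI), and both then passed the test (Fisher's exact test, adjusted p = 0.0357 for each).

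Within the AsiSI clusters, microhomology was found in 77.3% (67.7 to 85.2) of the 97 junctions of the AsiSI library and 74.2% (64.1 to 82.7) of the 93 of the DRB with AsiSI library. Inserted bases were found in 13.4% and 18.3% of them, with intervals that overlap. Trans prey outside the clusters had microhomology in 67.5% (63.6 to 71.2) and 64.7% (61.1 to 68.1). The difference between clusters and other trans prey was not tested.

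Near the bait the libraries differed in how far the bait's own ends had been joined. Junctions within 1 kb made up 81.2% (80.3 to 82.1) of those within 1 Mb in the AsiSI library and 78.7% (77.9 to 79.5) in the DRB with AsiSI library. Those 1 to 20 kb away made up 18.7% (17.8 to 19.6) and 21.2% (20.4 to 22.0). With each junction counted as independent, both shares differed beyond counting error (Fisher's exact test, unadjusted p = 3.32e-05 and 4.09e-05). The shares nearly mirror each other, so they are not separate results. Distinct positions made up 33.6% and 30.8% of these junctions. The test was not repeated with identical positions counted once, so these p-values may be too small. The median distance was 354 and 380 bp. The junctions used for scaling thus differed in this way too, and the ratios were therefore also computed on other scales. Scaled to junctions within 1 kb, the ratio was 0.701 (0.527 to 0.934) for the clusters and 0.918 (0.837 to 1.01) for prey outside the antigen receptor loci, and neither passed (Fisher's exact test, adjusted p = 0.0713 and 0.111).

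The change with DRB was set beside that in 2 other pairs of libraries, each within 1 sequencing run and with the same labelled cell type, genotype, bait and G1 arrest. Without added breaks, prey outside the antigen receptor loci was 69.8 per 1000 in untreated replicate 2 and 53.8 per 1000 with DRB, a ratio of 0.771 (0.639 to 0.930). After etoposide, a topoisomerase II poison given at 50 µM for 2.5 h with 12 h of recovery, it was 821 per 1000 in etoposide replicate 2 and 113 per 1000 with DRB, a ratio of 0.137 (0.120 to 0.157). The ratio with AsiSI, 0.889, did not differ beyond counting error from that without added breaks (ratio of ratios 1.15, 0.936 to 1.42). It was 6.48 times the ratio with etoposide (5.50 to 7.65). With replicate 1 of the untreated and etoposide libraries as controls, which come from another sequencing run than the DRB libraries, these ratios of ratios were 9.92 (8.10 to 12.2) and 67.9 (57.3 to 80.5), so the first then differed and both depend on which control library is used. The class compared holds all prey outside the antigen receptor loci, whatever made the break. In the AsiSI library 10.4% of it lay in AsiSI clusters, where the ratio was 0.680 (0.510 to 0.904). In etoposide replicate 2 it stood at 821 per 1000, against 69.8 in untreated replicate 2. The 6.48 is thus not a contrast of AsiSI breaks with etoposide breaks. At the kappa locus the ratios were 0.952 (0.880 to 1.03) with AsiSI, 0.784 (0.682 to 0.902) without added breaks and 0.877 (0.737 to 1.04) with etoposide. Within 2 kb of the gene starts used, which were incomplete, trans prey with etoposide had a ratio of 0.0676 (0.0347 to 0.132), from 237 to 9 junctions. With AsiSI the ratio was 0.806 (0.596 to 1.09).

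**Figure D5:**
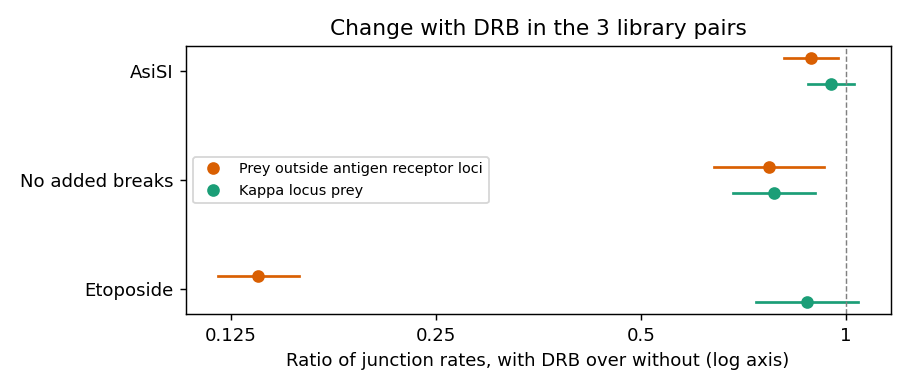
Ratio of junction rates with DRB over without, for prey outside antigen receptor loci (orange) and kappa locus prey (green), in the 3 pairs of libraries (points, with 95% intervals for counting error; log axis; dashed line at 1). With etoposide the first class stands at 0.137, while with AsiSI it stands at 0.889.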

How the data were processed

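The submitters deposited 1 table of junctions per library, made from MiSeq reads with the standard pipeline of the assay, per the labels' protocols; bedtools and the genome builds GRCm38.p2 and mm10 are listed in the submitters' processing notes. Per the file headers, each row is 1 junction with its position, strand, read sequence and alignments; other settings are not given in the sources used here. Gene positions and promoter windows came from NCBI RefSeq, GRCm38.p6, whose chromosomes share mm10's coordinates.

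Prey lay more than 1 Mb from the bait. Antigen receptor loci were runs of at least 10 annotated segments. Rates were scaled to junctions within 1 Mb of the bait. Ratios have 95% intervals on the log scale that carry counting error of all 4 numbers, shares have exact Clopper-Pearson intervals, and Fisher's exact test was two-sided with Benjamini-Hochberg adjustment within each family and a threshold of 0.05. A motif read with up to 2 uncovered bases was accepted. The limit for a count of 0 is 3 junctions. All identical positions were counted. The per-cluster and per-gene tests were checked on simulated junctions, where many features with a simulated fall were not called. Python 3.11.15, scipy 1.17.1, pandas 2.3.3 and matplotlib 3.10.9 were used.

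The rule named the 15 clusters with the most junctions; values of all 19 are given. Genes named are the 10 with the most junctions, any past the threshold, up to 3 per list, kappa J segments and the 6 V segments with the most junctions. Slc6a6, Igkv1-110, Pcgf1 and Hk2 sites, Klf7 and Plk3 were chosen after their values were seen. The comparison, the members and the lists were chosen with earlier results of these data known. Some genes that the rule names are not reported here.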

Additional observations from a re-analysis of the deposited data

Results flagged for a closer look

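The change with DRB in prey outside the antigen receptor loci differed between AsiSI and etoposide. The ratio with AsiSI was 6.48 times that with etoposide (95% interval 5.50 to 7.65, counting error only), from 0.889 and 0.137. It was 4.13 times when scaled to all junctions, and 67.9 times with etoposide replicate 1, from another sequencing run, as the control. The class holds all prey outside the antigen receptor loci. In the AsiSI library 10.4% of it lay in AsiSI clusters, where the ratio was 0.680. The 6.48 is thus not a contrast of AsiSI breaks with etoposide breaks. There was 1 library for each condition with DRB, so this contrast has no replicate check.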

How the results depend on the processing

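Over 76 alternatives, 52 kept each result's direction and side of its threshold. Some of the 52 could not have changed the result. No AsiSI cluster lay on chromosome 6, so leaving out that chromosome, or prey within 10 Mb of the bait, kept the cluster ratio at 0.680. The 10 Mb setting could not change the kappa or other trans rate either. Clusters of at least 10 junctions entered the count of clusters that differ more than once. The cluster rate ratio stayed below 1 in all 18 settings, the main one and those that could not change it included (0.514 to 0.764). It lost its call when identical positions were counted once (0.747), when scaled to junctions within 1 kb of the bait (0.701), 20 kb to 1 Mb from it (0.516), to kappa prey (0.714), with the motif in promoters in place of clusters (0.726), and, chosen after seeing the data, without Syde2 (0.709) or scaled to prey outside the antigen receptor loci (0.764). The rate of prey outside the antigen receptor loci lost its call with the first 4 of these (0.971, 0.918, 0.676 and 0.934) and without the clusters, also chosen later (0.914). That of other trans prey lost it with the same 4 (0.953, 0.905, 0.666 and 0.921). The 20 kb to 1 Mb scale rests on 7 and 13 junctions. Kappa prey passed only with alignments of at least 50 bp (0.909), and its ratio turned to 1.03 with identical positions counted once. The 50 bp limit was set on prey and not on the junctions near the bait. It removed 600 of 2230 prey in the AsiSI library and 874 of 2914 in the DRB with AsiSI library. The lowest cluster ratio, 0.514, came from this setting. Of the shares, 3 differences turned sign without passing the test: trimmed bait ends (0.43 points) and prey that begin with AsiSI end letters (-0.0743 points) with alignments of at least 50 bp, and inserted bases without chromosome 6 (2.01 points). The shares in gene bodies and near gene ends passed only with chromosome 6 kept in (differences of -3.09 and -2.40 percentage points). The counts of clusters and genes that differ stayed at 0. Against the pair without added breaks, the ratio of ratios was 9.92 with untreated replicate 1, from another run, as the control, instead of 1.15. In the 16 other alternatives of the shares, none passed. No paired analysis was possible because each condition had 1 library, and leaving out a replicate was not possible either. The cause of each lost or gained call was not tested.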
